A study of Mus musculus with 19 samples.

Results

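The genes described are 34 members of a glycolysis and hypoxia-linked module: glucose and lactate transporters, the enzymes from hexokinase to lactate dehydrogenase, the enzymes that pass pyruvate to the mitochondrion or hold it back, and the hypoxia genes Hif1a, Egln3 and Bnip3. They were listed by name, and each was read from its brightest probe set annotated to that symbol alone. Of the 34, 31 had such a probe set in either of the deposited tables and 29 in both, with 30 of the 22180 genes of the spleen table and 30 of the 19938 genes of the lymph node table. Gpi1, Eno1 and Mpc2 had none in either table, Aldoa had none in the spleen table and Gapdh none in the lymph node table, so these were not analysed there. In spleen 25 members were bright enough to be tested; Pfkm, Pfkfb4, Ldhb, Pdk4 and Egln3 were not. In lymph node 27 were tested; Pfkfb4, Pdk4 and Egln3 were not.

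The cells were type 1 conventional dendritic cells (DC1), the subset that presents antigen to CD8 T cells, sorted from C57Bl/6j mice and measured on Affymetrix arrays. From spleen, all female, there were 3 arrays of Batf3-/- Irf8VENUS+ DC1, 3 of wild-type (WT) Irf8VENUS+ DC1 and 2 of WT Irf8VENUS- DC1. From skin-draining lymph nodes (SDLN; inguinal, cervical and brachial) there were 3 arrays of migratory Batf3-/-, 2 of migratory WT, 3 of resident Batf3-/- and 3 of resident WT DC1, all Irf8VENUS+. Irf8VENUS is a fluorescent reporter of Irf8, a transcription factor gene of DC1, and Batf3 is a second such gene, absent from the Batf3-/- mice. Migratory DC1 come from the skin and were gated as high for MHC class II and intermediate for CD11c; resident DC1 were gated the other way, with CD11c high. No age is given, and the labels do not say whether each array of a group stands for its own mouse, so p-values measure array-to-array spread that may in part be technical. The spleen protocol lists CD172a+ and the SDLN protocol CD172-. CD24 was the only sort marker of replicate 3 in both Irf8VENUS+ spleen groups, while the remaining spleen arrays were gated on XCR1 too.

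Glycolysis turns glucose into pyruvate in the cytosol and yields ATP quickly, and its committed step is set by phosphofructokinase under the control of the PFKFB enzymes. Pyruvate is reduced to lactate by lactate dehydrogenase, or is carried into the mitochondrion and oxidised by the pyruvate dehydrogenase complex, which the PDK kinases switch off. The hypoxia-inducible factor HIF-1 switches on many of these genes when oxygen is low, and dendritic cells are known to raise glycolysis when they are activated.

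The labels were first checked on the arrays. Batf3 fell in every group labelled Batf3-/-, by 3.69 ± 0.28 in spleen Irf8VENUS+ DC1 (log2 fold change ± standard error, adjusted p = 0.00193), by 2.64 ± 0.17 in resident (adjusted p = 7.87e-06) and by 3.17 ± 0.20 in migratory DC1 (adjusted p = 1.35e-05). The list of DC1 identity markers holds Batf3 and Irf8 themselves. All 11 of these markers on the spleen arrays and all 12 on the lymph node arrays passed the brightness filter. Even so, 8 of the 12 were called lower in migratory than in resident Batf3-/- DC1 (mean level 7.38 to 7.51 per array, against 9.50 to 9.53), and 9 of 12 in WT DC1 (7.80 to 8.31, against 9.98 to 10.23). All 10 tested markers of the migratory dendritic cell state were called higher in the migratory cells of each genotype. Irf8, migratory against resident, had -0.51 ± 0.18 (adjusted p = 0.0488) in Batf3-/- and -1.88 ± 0.21 (adjusted p = 2.10e-05) in WT DC1. Batf3 had 0.81 ± 0.20 (adjusted p = 0.00466) in WT DC1. Against spleen WT Irf8VENUS- DC1, Irf8 had 0.66 ± 0.10 (adjusted p = 0.0326) in Batf3-/- and 0.83 ± 0.10 (adjusted p = 0.0601) in WT Irf8VENUS+ DC1. The Irf8 calls were lost in 10 of 16 alternative fits in Batf3-/- and 10 of 17 in spleen. The tables hold no detection call, so a dim value may mean no transcript, and precision rests on how few arrays there are. Levels are log2 intensities and are compared only between arrays for the same gene, and adjusted p-values are from limma over all genes of a table, with 0.05 as the threshold.

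Between migratory and resident DC1, 13 members were lower in the migratory cells of both genotypes and 3 stood higher. In Batf3-/- DC1, 13 of 27 members fell and 4 rose, 63% of those tested, against 36.6% of all 11931 genes (22.6% lower, 14.1% higher). In WT DC1, 15 fell and 5 rose, 74.1%, against 49.2% of all genes (33.2% lower, 16% higher). The 2 comparisons share no array. In both, 13 members fell (Slc2a1, Slc2a3, Slc16a1, Hk2, Pfkl, Pfkp, Aldoc, Tpi1, Pgam1, Pkm, Ldha, Pdk1 and Pdha1) and 3 rose (Slc2a6, Pfkfb3 and Eno2). Hk1, Hk3, Pgk1 and Ldhb were called in WT alone and Pdk3 in Batf3-/- alone, and Slc16a3, Pfkm, Aldoa, Mpc1, Hif1a and Bnip3 in neither. The median log2 fold change of the 27 members was -0.50 in Batf3-/- DC1, against -0.02 over all genes, and -0.66 in WT DC1, against -0.16 over all genes. These are bulk samples, so fewer cells of a type and less RNA per cell cannot be told apart.

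**Figure D1:**
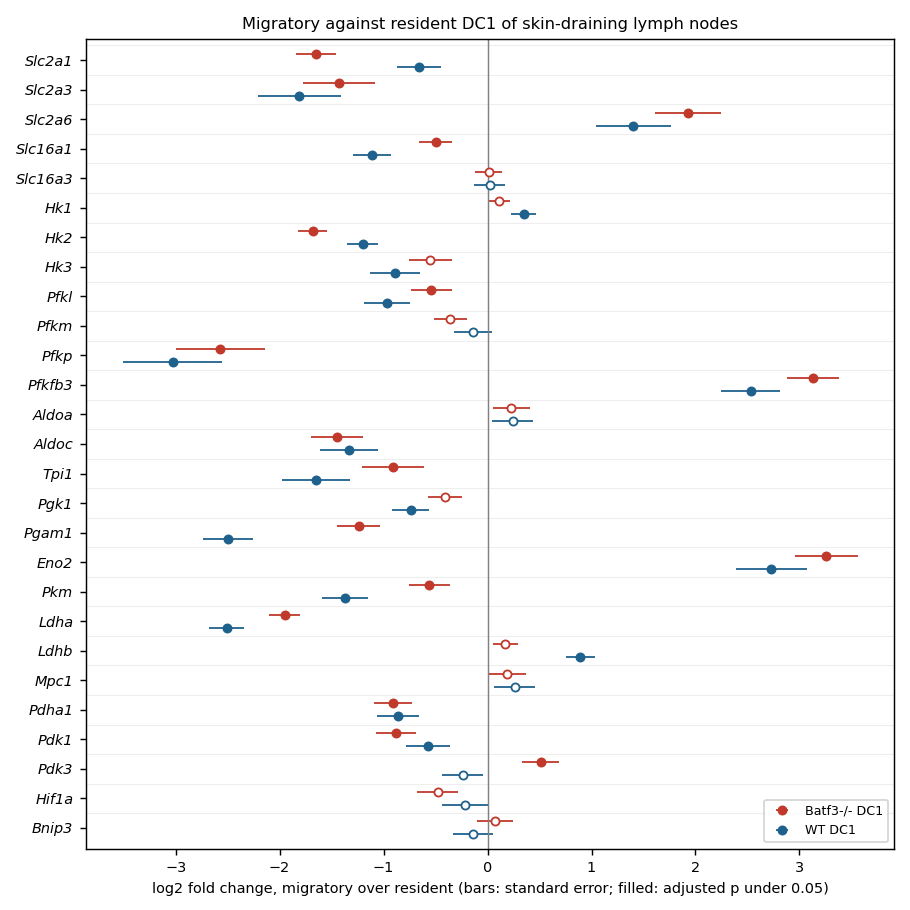
Log2 fold change, migratory over resident, of the 27 tested members in SDLN DC1, with Batf3-/- DC1 in red above WT DC1 in blue on each line. Bars are the moderated standard error and filled points passed the adjusted threshold of 0.05. Slc2a6, Pfkfb3 and Eno2 lie far to the right in both genotypes and Pfkp and Ldha far to the left.

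Among the glucose transporters, the basal carrier gene Slc2a1 (GLUT1) fell. It read 6.93, 6.95 and 7.19 in migratory Batf3-/- DC1, against 8.67, 8.97 and 8.36 in resident Batf3-/- DC1, and 7.57 and 7.49 in migratory WT DC1, against 8.40, 8.26 and 7.92 in resident WT DC1. The groups did not overlap in either genotype, and the change was -1.65 ± 0.19 in Batf3-/- (adjusted p = 2.80e-05) and -0.66 ± 0.21 in WT DC1 (adjusted p = 0.0215). Slc2a3 (GLUT3), a high-affinity carrier, read 6.96, 6.56 and 5.46 in migratory Batf3-/-, against 8.21, 8.01 and 7.04 in resident Batf3-/- DC1, and 5.62 and 5.84 in migratory WT, against 7.67, 7.41 and 7.53 in resident WT DC1. Every migratory array was below every resident array of its genotype, and the change was -1.43 ± 0.35 (adjusted p = 0.00702) in Batf3-/- and -1.81 ± 0.40 (adjusted p = 0.00264) in WT DC1.

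Slc2a6, which encodes GLUT6, a transporter of the same family found on internal membranes, went the other way. Its levels were 9.21, 9.33 and 8.04 in migratory Batf3-/-, against 7.24, 6.73 and 6.80 in resident Batf3-/- DC1, and 7.60 and 7.94 in migratory WT, against 6.65, 5.87 and 6.59 in resident WT DC1. The lowest migratory array of each genotype was above its highest resident array, with 1.93 ± 0.32 (adjusted p = 4.78e-04) in Batf3-/- and 1.40 ± 0.36 (adjusted p = 0.00688) in WT DC1. The lactate and pyruvate carrier gene Slc16a1 (MCT1) fell by 0.50 ± 0.16 (adjusted p = 0.032) in Batf3-/- and by 1.11 ± 0.18 (adjusted p = 4.26e-04) in WT DC1, from a dim probe set whose migratory arrays read 3.74 to 4.38. Slc16a3 (MCT4), the carrier known for lactate export, did not separate migratory from resident cells (0.01 ± 0.13, adjusted p = 0.96, in Batf3-/- and 0.02 ± 0.15, adjusted p = 0.912, in WT DC1).

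**Figure D2:**
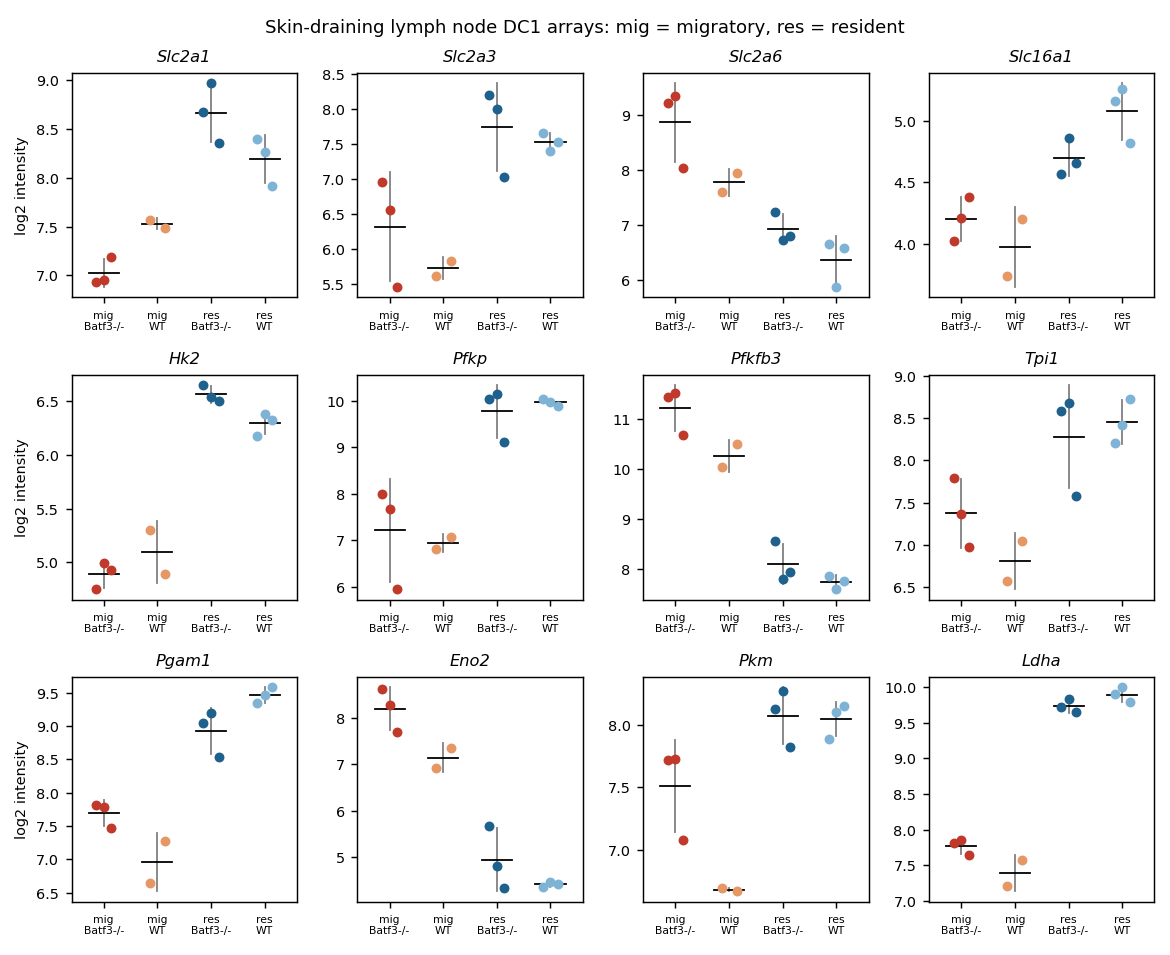
Log2 intensity of 12 members on each of the 11 SDLN arrays, with 1 point per array, the group mean as a black line and the SD as a grey bar. In each panel the migratory groups are left of the resident groups and Batf3-/- left of WT. Ldha and Hk2 are low in all 5 migratory arrays and Pfkfb3 and Eno2 are high in all 5.

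At the entry of glucose into the pathway, Hk2, the inducible hexokinase gene, read 4.75, 4.99 and 4.93 in migratory Batf3-/-, against 6.65, 6.54 and 6.50 in resident Batf3-/- DC1. In WT cells it read 5.30 and 4.89 in migratory, against 6.18, 6.38 and 6.32 in resident DC1. The groups did not overlap, and Hk2 fell by 1.68 ± 0.14 (adjusted p = 1.76e-06) in Batf3-/- and by 1.20 ± 0.15 (adjusted p = 6.62e-05) in WT DC1. The myeloid hexokinase gene Hk3 fell by 0.89 ± 0.24 in WT DC1 (adjusted p = 0.00889) and had -0.55 ± 0.21 in Batf3-/- DC1 (adjusted p = 0.0636). Hk1, the widely expressed hexokinase gene, was called higher in WT DC1 (0.35 ± 0.12, adjusted p = 0.0274), but its other probe set gave -0.26 (adjusted p = 0.279), so its direction is not settled. That call was also lost without migratory WT replicate 1 or resident WT replicate 2 or 3.

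The committed step held a large fall and a large rise. Pfkp, the platelet-type phosphofructokinase gene, read 8.00, 7.68 and 5.94 in migratory Batf3-/-, against 10.05, 10.15 and 9.12 in resident Batf3-/- DC1. It read 6.80 and 7.07 in migratory WT, against 10.04, 9.97 and 9.89 in resident WT DC1. No migratory array reached a resident one of its genotype; replicate 3 was the lowest of each Batf3-/- group. The change was -2.57 ± 0.43 (5.93-fold lower, adjusted p = 5.21e-04) in Batf3-/- and -3.03 ± 0.48 (8.16-fold lower, adjusted p = 3.28e-04) in WT DC1. With the SD of each array's values as a term, Pfkp had -1.44 in Batf3-/- and 0.38 in WT DC1. The liver-type gene Pfkl fell by 0.54 ± 0.20 (adjusted p = 0.049) in Batf3-/- and by 0.97 ± 0.22 (adjusted p = 0.00366) in WT DC1, whereas the muscle-type gene Pfkm was not called in either.

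Pfkfb3, whose product makes the fructose 2,6-bisphosphate that activates phosphofructokinase, read 11.46, 11.53 and 10.69 in migratory Batf3-/-, against 8.56, 7.80 and 7.93 in resident Batf3-/- DC1. In WT it read 10.04 and 10.50 in migratory, against 7.86, 7.59 and 7.76 in resident DC1. All 5 migratory arrays were above all 6 resident arrays. The rise was 3.13 ± 0.25 (8.74-fold, adjusted p = 1.49e-06) in Batf3-/- and 2.53 ± 0.28 (5.79-fold, adjusted p = 2.20e-05) in WT DC1.

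The promoters of 4 of these genes are shown because Ldha and Pfkp fell and Pfkfb3 and Slc2a6 rose in the same cells. Each is a RefSeq window of GRCm38.p6, 300 bases from 250 before to 50 after the first listed start, printed 5′ to 3′ on the gene's strand, with capitals marking ACGTG or GCGTG, the core letters of the hypoxia response element, on either strand. On the other strand these letters read as CACGT or CACGC, and where ACGTG overlaps CACGT the run is the palindrome CACGTG, also known as an E-box. Ldha lies at chr7:46845554-46845853 on the + strand, Pfkp at chr13:6648722-6649021 on the - strand, Pfkfb3 at chr2:11553880-11554179 on the - strand and Slc2a6 at chr2:27027949-27028248 on the - strand.
Ldha: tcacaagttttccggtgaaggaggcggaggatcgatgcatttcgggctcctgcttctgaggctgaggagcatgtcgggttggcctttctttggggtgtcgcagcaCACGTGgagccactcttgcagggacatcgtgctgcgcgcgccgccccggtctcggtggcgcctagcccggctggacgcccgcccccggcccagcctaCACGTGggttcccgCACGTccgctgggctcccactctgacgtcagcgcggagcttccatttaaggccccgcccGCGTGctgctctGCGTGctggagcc
Pfkp: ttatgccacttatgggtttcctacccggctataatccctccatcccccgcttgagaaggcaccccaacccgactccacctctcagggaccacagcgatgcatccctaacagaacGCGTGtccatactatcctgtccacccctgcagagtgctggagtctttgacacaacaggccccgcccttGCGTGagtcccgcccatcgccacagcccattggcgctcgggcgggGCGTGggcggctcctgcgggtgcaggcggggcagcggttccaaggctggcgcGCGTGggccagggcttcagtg
Pfkfb3: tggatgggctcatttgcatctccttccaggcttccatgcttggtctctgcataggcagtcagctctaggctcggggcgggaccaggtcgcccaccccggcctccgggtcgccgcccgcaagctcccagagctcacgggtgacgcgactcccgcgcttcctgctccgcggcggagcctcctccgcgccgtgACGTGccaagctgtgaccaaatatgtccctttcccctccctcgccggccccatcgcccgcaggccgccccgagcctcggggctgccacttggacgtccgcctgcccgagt
Slc2a6: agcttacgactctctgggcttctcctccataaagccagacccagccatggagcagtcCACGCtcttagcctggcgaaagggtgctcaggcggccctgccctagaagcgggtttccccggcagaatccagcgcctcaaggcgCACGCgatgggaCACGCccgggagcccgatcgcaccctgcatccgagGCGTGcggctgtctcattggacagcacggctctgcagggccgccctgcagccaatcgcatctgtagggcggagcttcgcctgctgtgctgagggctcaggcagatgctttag
Matches numbered 4 on the printed and 3 on the other strand for Ldha, with 2 CACGTG palindromes, 4 and 0 for Pfkp, 1 and 0 for Pfkfb3, and 1 and 3 for Slc2a6. Ldha and Pfkfb3 have 2 listed starts each, all with a match, with at most 7 and 4 matches in a window. The letters thus stood in the windows of genes that fell and of genes that rose. A window was found for 33 of the 34 members (none for Slc2a3), and 27 of the 33, or 81.8%, held a match, against 43.8% of the 27025 genes with a first listed window. Of the members that fell in both genotypes, 10 of 12 with a window held a match (83.3%), and of the 3 that rose, 2 did (66.7%); Eno2 had none. A match describes letters in a window and says nothing about binding.

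In the middle of the pathway, Aldoc, an aldolase gene, fell by 1.45 ± 0.25 (adjusted p = 6.11e-04) in Batf3-/- and by 1.33 ± 0.28 (adjusted p = 0.00202) in WT DC1. Aldoa, the main aldolase gene of most cells, had 0.23 ± 0.18 and 0.24 ± 0.20 and passed in neither. Tpi1, triose phosphate isomerase, fell by 0.91 ± 0.30 (adjusted p = 0.0303) in Batf3-/- DC1, where the groups overlapped, and by 1.65 ± 0.33 (adjusted p = 0.00158) in WT DC1, where they did not. Pgk1, phosphoglycerate kinase, which makes the first ATP of the pathway, fell by 0.74 ± 0.18 in WT DC1 (adjusted p = 0.00583) and had -0.41 ± 0.16 in Batf3-/- DC1 (adjusted p = 0.0698).

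Pgam1, phosphoglycerate mutase, read 7.82, 7.79 and 7.47 in migratory Batf3-/-, against 9.05, 9.20 and 8.54 in resident Batf3-/- DC1, and 6.65 and 7.27 in migratory WT, against 9.34, 9.47 and 9.58 in resident WT DC1. The groups did not overlap, with -1.24 ± 0.21 (adjusted p = 6.19e-04) in Batf3-/- and -2.50 ± 0.24 (adjusted p = 7.70e-06) in WT DC1. Eno2, the enolase gene known from neurons, read 8.62, 8.28 and 7.70 in migratory Batf3-/-, against 5.68, 4.82 and 4.34 in resident Batf3-/- DC1, and 6.92 and 7.36 in migratory WT, against 4.36, 4.46 and 4.43 in resident WT DC1. Resident WT DC1 were below the table median of 4.82, and every migratory array was far above it. The rise was 3.26 ± 0.30 (9.55-fold, adjusted p = 4.54e-06) in Batf3-/- and 2.73 ± 0.34 (6.62-fold, adjusted p = 4.96e-05) in WT DC1. Eno3, the muscle enolase gene, which is not a member, rose as well, by 3.36 ± 0.18 (adjusted p = 9.05e-08) and 2.36 ± 0.20 (adjusted p = 3.50e-06). Eno1, the enolase gene of most cells, was not analysed here.

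At the end of the pathway, Pkm, which encodes the pyruvate kinase of most tissues, fell by 0.56 ± 0.20 (adjusted p = 0.0434) in Batf3-/- and by 1.37 ± 0.22 (adjusted p = 3.75e-04) in WT DC1. Ldha, the lactate dehydrogenase subunit that favours lactate, read 7.82, 7.86 and 7.65 in migratory Batf3-/-, against 9.72, 9.83 and 9.65 in resident Batf3-/- DC1, and 7.21 and 7.57 in migratory WT, against 9.90, 10 and 9.79 in resident WT DC1. The arrays of a group lay close together and the groups were wide apart. Ldha fell by 1.95 ± 0.15 (3.88-fold, adjusted p = 1.07e-06) in Batf3-/- and by 2.51 ± 0.17 (5.69-fold, adjusted p = 6.38e-07) in WT DC1. Ldhb, the subunit that favours pyruvate, rose by 0.89 ± 0.14 (adjusted p = 2.21e-04) in WT DC1 and had 0.17 ± 0.12 (adjusted p = 0.312) in Batf3-/- DC1. The levels of Ldhb were dim, at 5.37 and 5.42 in migratory WT and 4.34 to 4.62 in resident WT DC1, and its other probe set gave 0.53 (adjusted p = 0.0838).

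Of the genes for pyruvate use, Pdha1, the catalytic E1 subunit of pyruvate dehydrogenase, fell by 0.91 ± 0.18 (adjusted p = 0.00165) in Batf3-/- and by 0.86 ± 0.20 (adjusted p = 0.00406) in WT DC1. Pdk1, one of the kinases that inactivate it and a HIF-1 target, fell by 0.88 ± 0.19 (adjusted p = 0.00296) and 0.57 ± 0.21 (adjusted p = 0.0423). Another such kinase gene, Pdk3, rose by 0.51 ± 0.18 (adjusted p = 0.0464) in Batf3-/- DC1 and had -0.24 ± 0.20 (adjusted p = 0.34) in WT DC1. Mpc1, a subunit of the mitochondrial pyruvate carrier, was called in neither, at 0.19 ± 0.18 and 0.26 ± 0.20.

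Of the hypoxia genes, Egln3 was too dim to test. Hif1a, the oxygen-regulated subunit of HIF-1, read 8.38, 8.10 and 8.17 in migratory Batf3-/-, against 8.83, 8.84 and 8.43 in resident Batf3-/- DC1 (-0.48 ± 0.20, adjusted p = 0.0717). With the shared replicate number of the titles as a block, an alternative fit, the adjusted p of Hif1a was 0.0469. In WT DC1 it read 8.22 and 8.45 in migratory, against 8.93, 8.41 and 8.31 in resident DC1 (-0.22 ± 0.22, adjusted p = 0.431), and those groups overlapped. HIF-1 is regulated mainly through the stability of the protein, which arrays do not measure. Bnip3, a mitophagy gene and HIF-1 target, was called in neither comparison (0.07 ± 0.17 and -0.14 ± 0.19).

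Other technical and cell measures moved with the WT comparison. The SD of all log2 values within an array was 1.96 and 2.03 in the migratory WT arrays, against 2.21, 2.22 and 2.21 in resident WT DC1. In Batf3-/- DC1 it was 2.16, 2.15 and 2.07 in migratory, against 2.21, 2.23 and 2.16 in resident cells. With this SD as a term, 5 members remained called in WT DC1 (Slc2a6, Pfkfb3 and Eno2 higher, Hk2 and Ldha lower). Of all 11931 genes 1263 were called there with the term, against 5870 without it. In Batf3-/- DC1 14 members were called with the term. Pfkp then had 0.38 (adjusted p = 0.767), Slc2a3 0.81 (adjusted p = 0.451), Tpi1 0.41 (adjusted p = 0.685), Pfkl 0.40 (adjusted p = 0.558) and Pdha1 0.13 (adjusted p = 0.879) in WT DC1, so their falls there cannot be told apart from the narrower spread of those arrays. In Batf3-/- DC1 the term ended the calls of Slc2a3 (-0.56, adjusted p = 0.159), Tpi1 (-0.23, 0.545), Pfkl (-0.09, 0.745), Pkm (-0.18, 0.496) and Slc16a1 (-0.43, 0.158), while Pfkp had -1.44 ± 0.30 (adjusted p = 0.00296).

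Single arrays decided some of these calls. In WT DC1 the calls of Slc2a1, Hk3, Pgk1, Pdk1 and Slc2a6 were lost without at least one array. Slc2a1 was lost without migratory replicate 1 (-0.70, adjusted p = 0.0703), migratory replicate 2 (-0.62, 0.0887), resident replicate 1 (-0.56, 0.0755) or resident replicate 2 (-0.63, 0.0653). Pdk1 was lost without migratory replicate 1 (-0.38, adjusted p = 0.286), resident replicate 1 (-0.62, 0.0573) or resident replicate 2 (-0.34, 0.155). Pgk1 was lost without migratory replicate 1 (-0.51, adjusted p = 0.0845). Without migratory replicate 2, Hk3 had -0.75 (adjusted p = 0.0671) and Slc2a6 had 1.23 (adjusted p = 0.0529). In Batf3-/- DC1 those lost were Slc16a1, Pfkl, Tpi1, Pkm and Pdk3. Slc16a1 was lost without migratory replicate 1 or 2 or resident replicate 2 or 3 (-0.51 to -0.41). Pfkl was lost without migratory replicate 1 or 3 or resident replicate 1 or 2 (-0.61 to -0.35). Tpi1 was lost without migratory replicate 2 or 3 or resident replicate 1 or 2 (-0.90 to -0.71). Pkm was lost without migratory replicate 3 or resident replicate 1 or 2 (-0.53 to -0.35). Pdk3 was lost without any array but migratory replicate 3 (0.30 to 0.58).

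B cell markers were also higher in migratory WT DC1, 7 of 7 tested, with a mean level of 5.87 to 6.42 per array, against 4.46 to 4.85 in resident WT DC1. In Batf3-/- DC1, 1 of 7 was higher, with 4.95 to 5.90 in migratory, against 4.76 to 5.04 in resident DC1. Of 7 T cell markers, 3 were higher in migratory WT DC1 (6.13 to 6.90, against 5.86 to 5.95 in resident WT DC1). Tissue dissociation stress genes were lower in migratory cells, 8 of 13 in Batf3-/- (8.29 to 9.20, against 9.60 to 9.84 in resident cells) and 11 of 13 in WT DC1 (8.14 to 8.29, against 9.42 to 9.76). Of 5 markers of type 2 dendritic cells, 3 were lower and 1 higher in migratory cells of each genotype, and of 6 macrophage and monocyte markers 2 were lower and 2 higher in Batf3-/- and 3 lower in WT DC1. What part these had in the members' values was not tested.

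**Figure D3:**
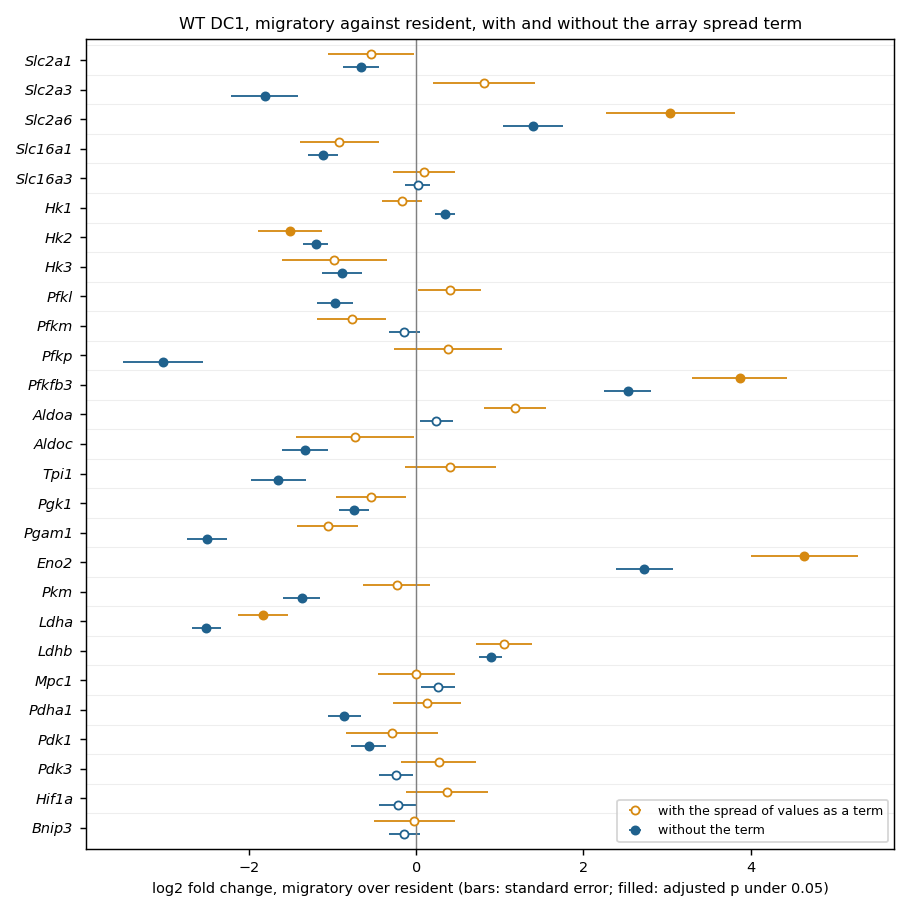
Log2 fold change, migratory over resident, of the 27 tested members in WT SDLN DC1, with the SD of each array as a term in orange above the fit without it in blue. Bars are the standard error and filled points passed the threshold. Pfkfb3, Eno2 and Slc2a6 stay to the right and Hk2 and Ldha to the left, whereas Pfkp lies at -3.03 without the term and at 0.38 with it.

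The pathways around glycolysis were read from further lists, whose counts stand against 36.6% of all genes called in Batf3-/- and 49.2% in WT DC1. No citric acid cycle gene rose in migratory DC1, and 9 of 16 fell in Batf3-/- and 14 of 16 in WT DC1. Among them were the fumarate hydratase gene Fh1 (-1.84 ± 0.20 in Batf3-/-, -1.56 ± 0.22 in WT) and the isocitrate dehydrogenase gene Idh3a (-1.34 ± 0.25 and -1.83 ± 0.28). The citrate synthase gene Cs was another (-0.77 ± 0.19 and -1.85 ± 0.21). Of 9 pentose phosphate pathway genes, 5 fell and 1 rose in Batf3-/-, and 6 fell in WT DC1, with Taldo1, transaldolase, at -1.71 ± 0.17 and -2.66 ± 0.19. Prps1, which makes phosphoribosyl pyrophosphate, had -1.37 ± 0.18 in Batf3-/- and -0.99 ± 0.20 in WT DC1. Tkt, transketolase, had -0.97 ± 0.21 in Batf3-/- and -1.79 ± 0.24 in WT DC1. With the array SD term the WT calls of Idh3a (-0.29), Cs (-0.57) and Tkt (-0.36) were lost, and Taldo1 kept its call (-1.53).

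Glycogen genes were mixed, with no larger share called than among all genes: 4 of 15 rose and 1 fell in Batf3-/-, and 2 rose and 4 fell in WT DC1. The glycogen phosphorylase gene Pygl rose by 3.47 ± 0.30 (adjusted p = 2.66e-06) and 2.66 ± 0.34 (adjusted p = 5.75e-05), and the glycogenin gene Gyg by 1.86 ± 0.17 and 2.0 ± 0.18. Every resident array of Pygl read 4.11 to 4.77, below the table median of 4.82. Pygl thus entered the fit only through its migratory arrays, at 6.32 to 8.70. Of 19 further glycolysis and pyruvate genes, 3 rose and 5 fell in Batf3-/-, and 3 rose and 7 fell in WT DC1; the ADP-dependent glucokinase gene Adpgk had -1.76 ± 0.17 and -1.39 ± 0.19. Of 10 further transport genes, 3 fell in each genotype, with the monocarboxylate transporter family gene Slc16a6 at -1.40 ± 0.38 and -2.08 ± 0.42. Slc37a2, a sugar phosphate transporter gene, had -1.03 ± 0.17 in Batf3-/-, and Bsg, the chaperone of MCT1 and MCT4, -0.91 ± 0.19 in WT DC1. The array SD term ended the WT calls of Adpgk (-1.26) and Bsg (-0.46) and both calls of Slc16a6 (-0.42 in Batf3-/-, 0.88 in WT DC1). The Batf3-/- call of Slc16a6 was also lost without resident replicate 1 or 2.

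Of 24 further hypoxia genes, 5 rose and 5 fell in Batf3-/-, and 4 rose and 6 fell in WT DC1, a share near that of all genes. The adrenomedullin gene Adm rose by 3.06 ± 0.33 (adjusted p = 1.80e-05) and 2.93 ± 0.37 (adjusted p = 6.37e-05), and the transcription factor gene Bhlhe40 by 1.88 ± 0.50 and 1.66 ± 0.56. Adm read 4.08 to 4.78 in resident WT DC1, below the table median of 4.82, and 5.67, 4.70 and 4.46 in resident Batf3-/- DC1. The call of Bhlhe40 was lost in Batf3-/- DC1 without resident replicate 2, and in WT DC1 in 5 of 15 alternatives, among them the omission of either migratory array or of resident replicate 2 or 3 (1.37 to 3.27 over all alternatives). Of 23 regulators of glucose use, 3 rose and 8 fell in Batf3-/-, and 1 rose and 13 fell in WT DC1. Txnip, whose product restrains glucose uptake, fell by 1.83 ± 0.29 and 1.66 ± 0.33. Myc, a transcription factor that drives glycolytic genes, had -2.24 ± 0.27 in Batf3-/- and -1.26 ± 0.30 in WT DC1. Rictor, a subunit of mTOR complex 2, had -1.01 ± 0.21 in Batf3-/- and -1.61 ± 0.23 in WT DC1. With the array SD term the WT calls of Txnip (-0.88) and Rictor (-0.11) were lost.

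The next comparisons asked what loss of Batf3 did within a cell state. In migratory DC1, 3 of 27 members were called, 11.1%, against 9.41% of all genes (7.13% higher, 2.28% lower), so the share was near the background. Pkm rose, at 7.72, 7.73 and 7.08 in migratory Batf3-/-, against 6.69 and 6.67 in migratory WT DC1 (0.83 ± 0.22, adjusted p = 0.0376). Its other probe set gave 0.42 (adjusted p = 0.269). Ldhb fell, at 5.00, 4.75 and 4.77, against 5.37 and 5.42 (-0.55 ± 0.14, adjusted p = 0.0283), and its other probe set gave -0.46 (adjusted p = 0.216). The groups did not overlap for either gene.

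Slc16a3 was the member called in both states. It read 5.67, 5.93 and 5.66 in migratory Batf3-/-, against 5.25 and 5.11 in migratory WT DC1 (0.57 ± 0.15, adjusted p = 0.0328). In resident DC1 it read 5.82, 5.73 and 5.67 in Batf3-/-, against 5.34, 5.02 and 5.11 in WT (0.58 ± 0.13, adjusted p = 0.0436), where it was the only one of 27 members called (3.7%, against 1.84% of all genes). All 6 Batf3-/- arrays were above all 5 WT arrays, from a probe set not far above the table median. In spleen Irf8VENUS+ DC1, Slc16a3 read 5.84, 5.68 and 5.59 in Batf3-/-, against 5.74, 5.52 and 5.61 in WT, and those groups overlapped. The resident call was lost without any one of 5 of the 6 arrays, among them all 3 Batf3-/- ones.

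Not every uncalled member of the migratory comparison was higher in Batf3-/- DC1. Slc2a1 had a mean of 7.02, against 7.53 in migratory WT DC1. Hk1 had 11.47, against 11.76, though its other probe set had a log2 fold change of 0.51. Over all tested genes, called or not, 59.6% were higher in migratory Batf3-/- than in migratory WT DC1. Several members lay just outside the threshold, all of them higher in Batf3-/- DC1. They were Pfkfb3 (0.95 ± 0.28, adjusted p = 0.0518), Pdk3 (0.67 ± 0.20, adjusted p = 0.0575), Eno2 (1.06 ± 0.34, adjusted p = 0.0656), Pgam1 (0.73 ± 0.24, adjusted p = 0.071) and Slc2a6 (1.09 ± 0.36, adjusted p = 0.0729). Migratory Batf3-/- replicate 3 was the lowest of its group for Pfkfb3, Eno2, Pgam1, Slc2a6 and Pdk3, at 10.69, 7.70, 7.47, 8.04 and 8.02. Over all genes that array correlated best with migratory WT replicate 2 (r = 0.9604), and its mean correlation with its own group was 0.949. Without it, 10 of 27 members were called, 9 higher and 1 lower. Of all 11931 genes 3570 were then called, against 1123 with it. These 5 members and also Pfkp (0.90 ± 0.29) and Slc2a3 (1.03 ± 0.32) joined the 3 above. Without migratory WT replicate 1 or Batf3-/- replicate 2 none was called. Ldhb alone was called without Batf3-/- replicate 1 (-0.63 ± 0.14) and Pgam1 alone without WT replicate 2 (1.04 ± 0.27). With the array SD as a term no member was called, and with the replicate number as a block there were 8. Over all genes 37 were called with the SD term and 2464 with the block.

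**Figure D4:**
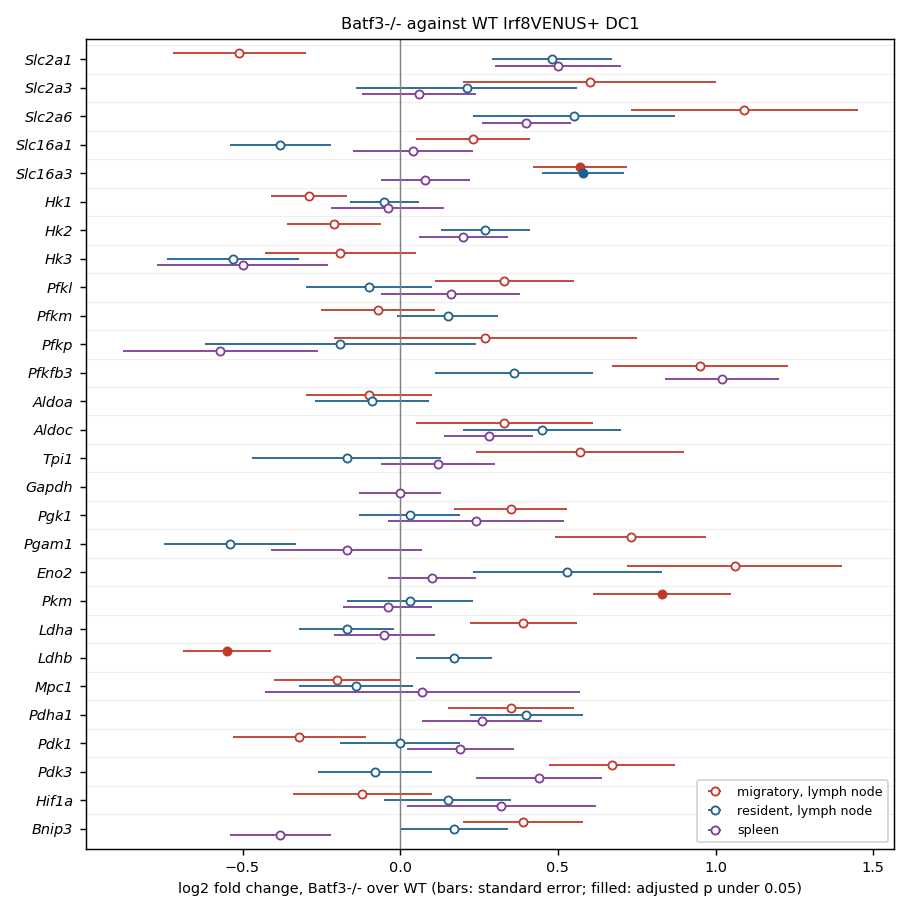
Log2 fold change, Batf3-/- over WT, of the tested members in migratory SDLN DC1 (red), resident SDLN DC1 (blue) and spleen Irf8VENUS+ DC1 (purple), with the standard error as bars. Filled points passed the threshold: Slc16a3 in migratory and resident DC1, and Pkm and Ldhb in migratory DC1.

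The difference of the Batf3 effect, migratory minus resident, was tested directly, and limma called no member, against 1.24% of all genes called; 8 members had an unadjusted p under 0.05, against 19.2% of all genes. The smallest p-values were those of Ldhb (-0.73 ± 0.18, adjusted p = 0.072), Pgam1 (1.26 ± 0.32, adjusted p = 0.0744) and Slc2a1 (-0.98 ± 0.29, adjusted p = 0.103). The other Ldhb probe set gave -0.27 ± 0.32 (adjusted p = 0.669) for the difference. Slc2a1 had -0.51 ± 0.21 in migratory DC1 and 0.48 ± 0.19 in resident DC1. Pgam1 had 0.73 ± 0.24 in migratory and -0.54 ± 0.21 in resident DC1, and neither value passed its own test. A further Pgam1 probe set gave 1.15 ± 0.32 (adjusted p = 0.0442) in migratory and -0.48 ± 0.29 (adjusted p = 0.745) in resident DC1, and 1.63 ± 0.43 (adjusted p = 0.0824) for the difference.

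From the further lists, Batf3-/- migratory DC1 had higher Eno3 (1.10 ± 0.20, adjusted p = 0.0113), Cs (1.18 ± 0.21, adjusted p = 0.0108), Pygl (1.27 ± 0.34, adjusted p = 0.0363), Taldo1 (0.76 ± 0.19, adjusted p = 0.0322) and Pdpr (0.68 ± 0.17, adjusted p = 0.0315), a regulator of pyruvate dehydrogenase phosphatase. Of the hypoxia genes Ndrg1 rose (1.42 ± 0.28, adjusted p = 0.0147) and Ankrd37 fell (-0.87 ± 0.18, adjusted p = 0.0168). The mTOR pathway genes Tsc1 (1.29 ± 0.35, adjusted p = 0.0401) and Rptor (0.99 ± 0.23, adjusted p = 0.0236) rose. All 9 of these calls were lost with the array SD term, with only the groups compared and without migratory WT replicate 1. With the SD term Eno3 had 0.60, Cs 0.40, Pygl 0.10, Taldo1 0.07, Pdpr 0.66, Ndrg1 0.33, Ankrd37 -1.03, Tsc1 -0.12 and Rptor 0.13. Apart from Eno3 and Cs, they were also lost without Batf3-/- replicate 1 or 2, and Pdpr without WT replicate 2. Stress genes were higher in 3 of 13 cases, with 8.29 to 9.20 in Batf3-/-, against 8.14 to 8.29 in WT. Of 7 B cell markers 1 was lower (4.95 to 5.90, against 5.87 to 6.42). Of 12 DC1 identity markers 5 were lower, among them Batf3 itself, and Irf8 was higher (7.38 to 7.51, against 7.80 to 8.31). Macrophage and monocyte markers were higher in 2 of 6 cases, migratory-state markers in 1 of 10 and the Langerhans cell marker in 1 of 1. Of 6 plasmacytoid dendritic cell markers 1 was lower. The part of these markers was not tested. In resident Batf3-/- DC1 the mitochondrial isocitrate dehydrogenase gene Idh2 fell (-0.85 ± 0.19, adjusted p = 0.0413), a call lost without any one of the 6 arrays (-0.91 to -0.79 over all alternatives). In the same comparison 4 of 10 migratory-state markers were higher (7.91 to 8.84 in resident Batf3-/-, against 7.04 to 7.62 in resident WT DC1). So were 2 of 5 markers of type 2 dendritic cells (5.42 to 5.67, against 4.87 to 6.05). Of 12 DC1 identity markers 3 were lower (9.50 to 9.53, against 9.98 to 10.23), among them Batf3 itself, whose loss also lowers that mean. Their part in the values of Idh2, Phka2 and Slc16a3 was not tested.

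Phka2, which encodes the liver-type regulatory subunit of phosphorylase kinase and so acts on glycogen breakdown, was the further gene called lower in Batf3-/- DC1 of both spleen and resident lymph node. In resident DC1 it read 6.44, 6.41 and 6.40 in Batf3-/-, against 7.76, 8.15 and 8.21 in WT (-1.62 ± 0.16, adjusted p = 1.67e-04). In spleen it read 7.07, 6.83 and 7.00 in Batf3-/- Irf8VENUS+, against 8.03, 8.14 and 8.25 in WT Irf8VENUS+ (-1.17 ± 0.16, adjusted p = 0.0223) and 8.31 and 8.02 in WT Irf8VENUS- DC1 (-1.24 ± 0.19, adjusted p = 0.0376). The groups did not overlap in any of the 3 comparisons. The resident call held in all 16 alternatives. The spleen calls were lost in 7 of 18 alternatives against WT Irf8VENUS+ (-1.25 to -1.12) and in 10 of 17 against WT Irf8VENUS- DC1 (-1.38 to -1.09). Both were lost without any one Batf3-/- array, and also without WT Irf8VENUS+ replicate 2 or 3 in the first and without either WT Irf8VENUS- array in the second.

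In spleen, loss of Batf3 called no member in Irf8VENUS+ DC1, against 0.738% of all 12875 genes; 4 members had an unadjusted p under 0.05, against 10.4% of genes. Pfkfb3 came nearest. It read 8.84, 9.32 and 8.59 in Batf3-/- Irf8VENUS+, against 7.89, 8.05 and 7.73 in WT Irf8VENUS+ DC1, and 8.69 and 8.41 in WT Irf8VENUS- DC1. The Batf3-/- arrays were above the WT Irf8VENUS+ arrays without overlap and overlapped the Irf8VENUS- arrays. The difference from WT Irf8VENUS+ was 1.02 ± 0.18 (2.03-fold, adjusted p = 0.0581), with 1.11 among arrays of the CD24 and XCR1 gate and 0.85 between the single arrays of the CD24 gate. It was past the threshold under 4 alternatives, array weights (adjusted p = 0.0249) among them. Slc2a1 had 0.50 ± 0.20 (adjusted p = 0.428), Slc2a6 0.40 ± 0.14 (adjusted p = 0.35) and Bnip3 -0.38 ± 0.16 (adjusted p = 0.46), and none of them was called. Of 10 migratory-state markers 1 was higher in Batf3-/- (7.74 to 7.95 per array, against 6.61 to 7.13 in WT Irf8VENUS+ DC1). WT Irf8VENUS- arrays had 7.16 to 7.48. Of 11 DC1 identity markers 3 were lower, among them Batf3 itself (9.40 to 9.75, against 10.04 to 10.39). Of 2 Langerhans cell markers 1 was higher. Among 14 stress genes none was called (9.59 to 9.92, against 9.03 to 9.47, with 9.75 to 10.14 in WT Irf8VENUS- DC1). The part of these markers was not tested.

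**Figure D5:**
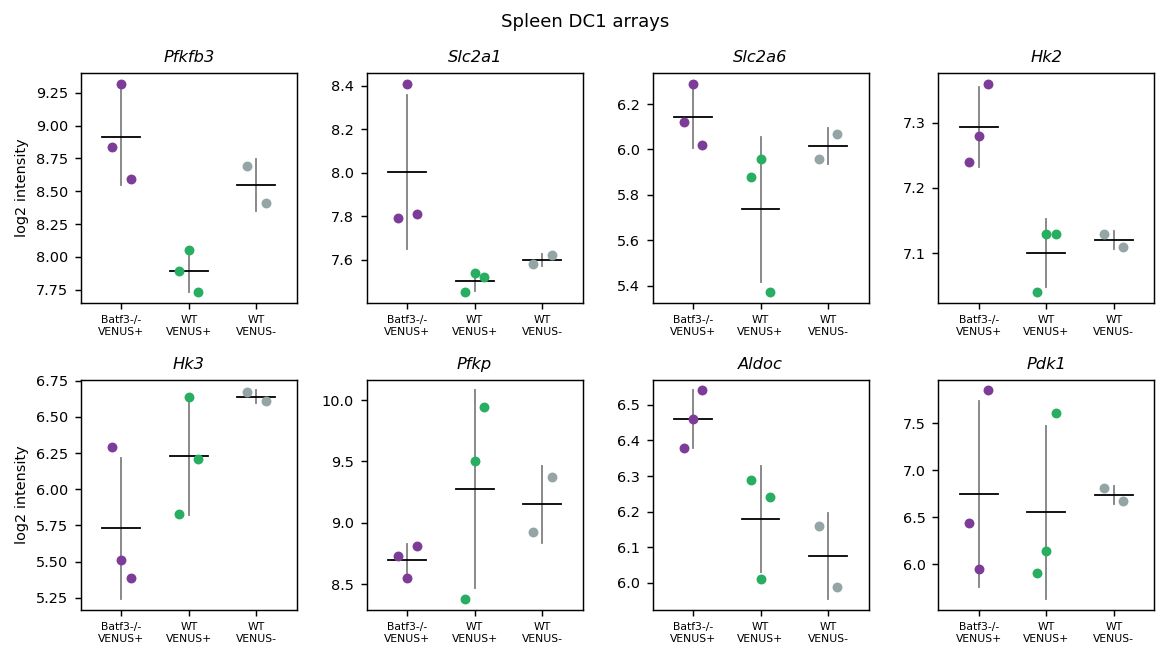
Log2 intensity of 8 members on each of the 8 spleen arrays, with 1 point per array, the group mean as a black line and the SD as a grey bar. In the Pfkfb3 panel the Batf3-/- Irf8VENUS+ arrays lie at 8.59 to 9.32, above WT Irf8VENUS+ at 7.73 to 8.05, and Pdk1 shows the 2 arrays sorted on CD24 alone at 7.85 and 7.61.

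Neither spleen comparison with WT Irf8VENUS- DC1 called a member. For WT Irf8VENUS+ against Irf8VENUS- the background was 0.0233% of genes and 2 members had an unadjusted p under 0.05 (7.91% of genes did), Pdk1 (-0.73 ± 0.20, adjusted p = 0.483) and Pfkfb3 (-0.54 ± 0.22, adjusted p = 0.604). For Batf3-/- Irf8VENUS+ against WT Irf8VENUS- it was 0.559%, also with 2 members (9.25% of genes), Pdk1 (-0.54 ± 0.20, adjusted p = 0.457) and Hk3 (-0.82 ± 0.32, adjusted p = 0.466). The 2 comparisons share the Irf8VENUS- arrays. Pdk1 read 6.44, 5.95 and 7.85 in Batf3-/- Irf8VENUS+ and 5.91, 6.14 and 7.61 in WT Irf8VENUS+ DC1. In both groups the high array was replicate 3, the only array sorted on CD24 alone, so gate and replicate cannot be told apart. The gate was a term of the fit. Another probe set of Pdk1 correlated at -0.665 with the set used over the spleen arrays and gave 0.35 in place of -0.73.

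Between Batf3-/- and WT Irf8VENUS+ spleen DC1, Hk2 (0.20 ± 0.14), Aldoc (0.28 ± 0.14) and Pdk3 (0.44 ± 0.20) were not called, with unadjusted p of 0.191, 0.0852 and 0.0606 in limma. Gapdh, the glyceraldehyde phosphate dehydrogenase gene, ranged from 10.92 to 11.07 in Batf3-/- Irf8VENUS+, from 10.76 to 11.23 in WT Irf8VENUS+ and from 10.76 to 10.94 in WT Irf8VENUS- DC1. Hif1a read 9.05, 8.72 and 9.14, against 7.93, 9.10 and 8.93 in WT Irf8VENUS+ and 8.42 and 8.90 in WT Irf8VENUS- DC1, with the lowest value in WT Irf8VENUS+ replicate 1. Pfkp read 8.73, 8.55 and 8.81 in Batf3-/- Irf8VENUS+, against 8.38, 9.50 and 9.94 in WT Irf8VENUS+ and 8.93 and 9.37 in WT Irf8VENUS- DC1. Without WT Irf8VENUS+ replicate 1, Pfkp was called lower in Batf3-/- DC1 (-0.97 ± 0.17, adjusted p = 0.0454). The median log2 fold change of the 25 members was 0.10, -0.08 and 0.09 in the 3 spleen comparisons, against -0.02, 0.02 and 0.00 over all genes.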

How the data were processed

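Expression was measured on Affymetrix arrays of 2 designs, 8 from spleen and 11 from SDLN, and the tables were tested separately. RMA, a method of background correction, quantile normalization and probe summary, is the tool named per the submitters' processing notes, without a version. The deposited spleen values are linear intensities (1.85 to 13035.5) and were turned to log2; the deposited SDLN values are on a log2 scale (1.35 to 13.96). Neither gives background or depth, so precision depends on array number. Gene names came from GEO's platform annotation, with symbols updated through RefSeq gene identifiers; 23521 of 41345 spleen and 21789 of 35556 SDLN sets had 1 symbol, 1814 and 1621 had several and 16010 and 12146 were unnamed. Each gene was its brightest set with 1 symbol.

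Genes entered the fit if 2 or more arrays were at or over the median of their table, 5.04 in spleen and 4.82 in SDLN. Models were fitted with limma 3.58.1 (R 4.3.3; lmFit, eBayes with trend) over all arrays of a table, with the sort gate as a term in spleen, p-values adjusted by Benjamini-Hochberg across every fitted gene, called at 0.05; "called", "rose" and "fell" mean past it. The procedure was tested on simulated data. All members called in a comparison are named, with up to 2 called genes of each further list, Batf3 and Irf8. For migratory against resident DC1, a gene so named is given for both genotypes where both called it. The members and lists were chosen with earlier results of these data known. Eno3 appears as such a gene, and uncalled members were chosen after their values were seen. No p-value tests the whole list.

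SDLN titles carry a shared code, which orders the replicates. Deviations from group means of same-coded resident and migratory Batf3-/- arrays correlated at 0.416, 0.210 and 0.479. Differently coded arrays gave 0.184 (resident 1, migratory 2) and 0.218 (resident 2, migratory 1), and -0.279 to -0.451 in pairs with a replicate 3 array. Replicate 3 thus stood apart from replicates 1 and 2, and pairing of each number is not settled. The lymph node fits hold no replicate term except where a block is named. In WT the same-coded values were 0.147 and 0.097. Alternatives were other filters, quantile normalization or median centring again, the mean of all probe sets, array weights, no trend, the array SD as a term, only the groups compared, the replicate block, only arrays sorted on CD24 and XCR1, and each array left out.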

Additional observations from a re-analysis of the deposited data

Results flagged for a closer look

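The Batf3 effect on Phka2 differed between migratory and resident SDLN DC1 by a test of the difference itself, 1.27 ± 0.24 (limma, adjusted p = 0.036). Phka2 read 6.32, 6.52 and 6.28 in migratory Batf3-/-, against 6.60 and 6.87 in migratory WT DC1, and 6.44, 6.41 and 6.40 in resident Batf3-/-, against 7.76, 8.15 and 8.21 in resident WT DC1. The 3 resident WT arrays thus stood above the other 8. The call was lost in 9 of 20 alternatives (0.99 to 1.41 over all of them): with the array SD as a term, and on leaving out any one array but resident WT replicate 1, migratory WT replicate 2 or migratory Batf3-/- replicate 3. Irf8, which was read as a check of the labels, differed in the same way, by 1.38 ± 0.28 (adjusted p = 0.0402). It read 12.37, 11.95 and 11.54 in migratory Batf3-/-, against 10.46 and 10.97 in migratory WT DC1 (1.24 ± 0.21, adjusted p = 0.00833), a call lost with the array SD term (0.43), with only the groups compared (1.24, adjusted p = 0.1) and without migratory WT replicate 1 (0.98). In resident DC1 it read 12.49, 12.51 and 12.37 in Batf3-/-, against 12.39, 12.68 and 12.72 in WT (-0.14 ± 0.18, adjusted p = 0.974). The Irf8 difference was lost in 12 of 20 alternatives (0.49 to 1.63): with the array SD term (0.49), median centring and no trend, and on leaving out any one array but migratory WT replicate 2 or migratory Batf3-/- replicate 3.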

How the results depend on the processing

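Beside the counts given for the members, the alternatives moved them as follows. In spleen Batf3-/- against WT Irf8VENUS+ DC1, where 0 members were called, 1 (Pfkfb3, higher) was called under the stricter filter, quantile normalization, array weights and the array SD term, and leaving out 1 array gave 0 to 1. Over all genes 95 were called in the main fit and 117 to 262 in the fits that called Pfkfb3. The other spleen comparisons stayed at 0 in every alternative run. In resident DC1, Batf3-/- against WT, the 1 call (Slc16a3) became 0 with no filter, quantile normalization, median centring and no trend, 4 with array weights, and 0 to 1 with 1 array left out. Over all genes the 220 calls became 981 with array weights. They became 187 to 208 with no filter, quantile normalization, median centring and no trend. In migratory DC1 the 3 calls became 8 with array weights, 0 with the array SD term and 0 with only the groups compared, and 0 to 10 with 1 array left out. The count over all 11931 genes moved too, from 1123 to 2294 with array weights, 37 with the SD term and 7 with only the groups compared. In WT DC1, migratory against resident, the 20 calls became 5 with the array SD term and 16 to 19 with 1 array left out; in Batf3-/- DC1 the 17 calls became 12 to 16. For the difference of the Batf3 effect the 0 calls became 3 with array weights and 0 to 5 with 1 array left out, the 5 without migratory Batf3-/- replicate 3.

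With the replicate block, 8 members were called in migratory DC1 (7 higher, 1 lower) and 1 in the difference of the Batf3 effect (Pgam1, 1.35 ± 0.30, adjusted p = 0.0355). The block moved no other count of members by over 1.5 times. In migratory DC1 it called 2464 of all 11931 genes, against 1123 without it. The title numbers pair these arrays only by number: the migratory Batf3-/- and WT arrays of the same number correlated at -0.157 and 0.245.

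With the array SD as a term, the sign turned in WT DC1, migratory against resident, for Hk1 (-0.17), Pdha1 (0.13), Pfkl (0.40), Pfkp (0.38), Slc2a3 (0.81), Tpi1 (0.41) and Slc16a6 (0.88), and in migratory DC1, Batf3-/- against WT, for Tsc1 (-0.12). The other Hk1 probe set, added after seeing the data, gave -0.26. Of 41 called member results, 15 kept their call in every alternative and 26 lost it in at least 1. In WT DC1 those kept were Pfkfb3 (2.31 to 3.87), Eno2 (2.51 to 4.64), Hk2 (-1.51 to -1.0) and Ldha (-2.69 to -1.83). Centring arrays on their median moved the all-gene median from -0.16 to -0.31 in WT DC1, migratory against resident, with 4 members higher and 15 lower; quantile normalization gave -0.05, with 7 higher and 13 lower (35% of calls higher, as against 25%). In migratory DC1, Batf3-/- against WT, quantile normalization left 1 higher and 1 lower. The cause of these changes was not tested.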
